A study of Mus musculus with 8 samples.

Results

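The nuclear genes for subunits of mitochondrial respiratory complexes II to V were examined in calf muscle of arthritic mice with and without dipyridamole. They were taken by symbol, as every Sdha to Sdhd, Uqcr, Cox4 to Cox8 and Atp5 gene of the deposited count tables. This gave 48 of 21833 symbols: 4 genes of complex II, 8 of complex III, 19 of complex IV and 17 of complex V. A total of 46 passed the filter on low counts, and Cox7b2 and Cox8c, which encode testis forms of cytochrome c oxidase subunits, did not. Cox7b2 had 0 counts in all 8 libraries, where 3 counts are worth 0.0591 to 0.254 CPM, and Cox8c had 1 count in a single library. The pattern also took in Cox5b-ps, which RefSeq calls a pseudogene of Cox5b, and Cox7a2l, a supercomplex assembly factor named after subunit 7a.

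Poly(A) RNA of gastrocnemius was sequenced from male C57BL/6J mice aged 12 weeks. The RA+Dipy mice (n = 4) had dipyridamole, an inhibitor of nucleoside uptake and phosphodiesterases, at 25 mg/kg per day from day 0, on top of the serum described next. The RA mice (n = 4) had serum alone. In both groups the serum was pooled from K/BxN mice, which develop antibody-driven arthritis, and 100 µL went into the peritoneum on day 0 and again on day 2, so the arthritis is a passive transfer. Muscle was collected on day 16. Muscle without arthritis was not analysed here, so each value below contrasts treated with untreated arthritic muscle. The group sizes in the design text count mice, and each library is taken as 1 mouse. Some label fields go against the groups: the genotype field reads K/BxN for serum recipients, and a protocol field names dipyridamole for all 8 samples. Groups were therefore taken from the sample titles.

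Complex II (succinate dehydrogenase) passes electrons from succinate to ubiquinone, complex III (the cytochrome bc1 complex) moves them on to cytochrome c, complex IV (cytochrome c oxidase) hands them to oxygen, and complex V (ATP synthase) uses the resulting proton gradient to make ATP. Complex II is encoded wholly in the nucleus, whereas complexes III, IV and V combine nuclear with mitochondrially encoded subunits. Cytochrome c oxidase has paired forms of several nuclear subunits: Cox6a2, Cox7a1 and Cox8b are the heart and skeletal muscle forms, and Cox6a1, Cox7a2 and Cox8a are the forms found in most tissues. Transcription factors of the ETS family and NRF1 are the textbook regulators of ubiquitous respiratory genes, and E-boxes are bound by the myogenic factors of muscle.

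The promoters of the subunit 7a and subunit 8 pairs are shown because the comparison of muscle with ubiquitous forms turns on these genes. Each is the RefSeq sequence of 300 bases around the annotated start (GRCm38.p6), written along the gene's own strand. Capitals mark E-box cores (CANNTG) and the ETS core (CCGGAA, or TTCCGG on the other strand). Cox7a1 lies on the plus strand (chr7:30183921-30184220), while Cox7a2 (chr9:79759804-79760103), Cox8b (chr7:140900397-140900696) and Cox8a (chr19:7217567-7217866) lie on the minus strand.
Cox7a1: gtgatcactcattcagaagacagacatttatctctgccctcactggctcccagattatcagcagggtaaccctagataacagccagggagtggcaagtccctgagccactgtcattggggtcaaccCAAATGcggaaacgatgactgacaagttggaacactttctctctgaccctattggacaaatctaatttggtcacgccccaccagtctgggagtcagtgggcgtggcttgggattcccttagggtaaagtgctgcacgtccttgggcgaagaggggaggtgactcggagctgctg
Cox7a2: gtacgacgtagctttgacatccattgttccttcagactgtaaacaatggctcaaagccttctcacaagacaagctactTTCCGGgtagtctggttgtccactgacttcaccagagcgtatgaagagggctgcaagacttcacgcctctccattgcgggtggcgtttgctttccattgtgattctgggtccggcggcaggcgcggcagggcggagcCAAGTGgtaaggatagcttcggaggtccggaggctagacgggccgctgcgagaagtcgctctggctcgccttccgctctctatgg
Cox8b: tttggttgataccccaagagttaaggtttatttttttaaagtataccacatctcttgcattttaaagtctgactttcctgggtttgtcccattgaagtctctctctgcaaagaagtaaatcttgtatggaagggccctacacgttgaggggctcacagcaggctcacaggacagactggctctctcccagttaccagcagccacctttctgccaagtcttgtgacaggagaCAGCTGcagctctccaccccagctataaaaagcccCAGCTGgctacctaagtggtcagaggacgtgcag
Cox8a: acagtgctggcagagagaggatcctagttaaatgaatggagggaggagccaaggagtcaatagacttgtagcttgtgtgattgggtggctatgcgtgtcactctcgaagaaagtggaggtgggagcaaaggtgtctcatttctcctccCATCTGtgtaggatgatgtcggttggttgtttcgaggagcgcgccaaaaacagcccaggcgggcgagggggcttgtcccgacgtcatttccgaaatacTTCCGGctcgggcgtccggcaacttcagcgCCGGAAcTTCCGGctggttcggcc

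The muscle forms carried 7 (Cox7a1) and 2 (Cox8b) CG dinucleotides in these windows, against 20 and 19 in their ubiquitous partners Cox7a2 and Cox8a. No ETS core was found in the windows of Cox7a1 or Cox8b, whereas Cox7a2 held 1 and Cox8a held 3. Cox8b had 2 E-box cores of the form CAGCTG, and its window also holds a TATAAA box. The muscle form Cox7a1 and the ubiquitous forms Cox7a2 and Cox8a had 1 E-box core each. A promoter was matched by symbol for 36 members, on 39 rows of the table, and Cox6a2 was not among them. The ETS core occurred in 43.6% of these member promoters and in 14.9% of all 32851 promoters of the same length, counting both strands. TGCGCA, the repeated unit of NRF1 sites, occurred in 20.5% and 7.76%, E-box cores (CANNTG) in 66.7% and 72.3%, and TATAAA in 10.3% and 13.6%. The median number of CG dinucleotides was 18.5 in member promoters and 7 in all promoters. These are letter matches in a window and not measured binding.

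Library totals ran from 16.4 to 25.4 M counts in RA+Dipy and from 16.7 to 50.6 M in RA. Members took 1.93% to 4.08% of the counts in RA+Dipy and 2.01% to 2.69% in RA. Of the 10 listed fast-fibre markers 10 were detected, with a summed level of 144000 to 185000 CPM in RA+Dipy and 147000 to 226000 CPM in RA. Tnnc2 of this list was barely counted, at 0.88 to 3.10 CPM in RA+Dipy and 1.05 to 2.70 CPM in RA. RA+Dipy replicate 1 and RA replicate 4 stood apart from the other 6 libraries. Over all 12755 genes tested, the log2 deviation of a gene from its median in those 6 libraries had an SD of 0.89 in RA+Dipy replicate 1 and 1.25 in RA replicate 4, against 0.21 to 0.39 elsewhere. Results are therefore given with all 8 libraries and without these 2. Levels are in CPM, counts per library scaled by TMM so that libraries can be compared.

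Respiratory subunit transcripts were abundant: 39 of the 48 members averaged 100 CPM or more in both groups. Per kilobase of transcript, the highest median level over the 8 libraries was that of Cox4i1, the ubiquitous form of subunit 4 (1580 CPM per kb). Atp5b, the beta subunit of the ATP synthase head, followed at 1450 and Cox6a2 at 1360 CPM per kb. At the lower end stood Cox4i2, the lung form of subunit 4 (6.07 CPM per kb), Cox5b-ps (2.44) and Cox6b2, the testis form of subunit 6b (1.15). Atp5l, a membrane subunit of ATP synthase, was listed at 7.56 CPM per kb. It shares 69.0% of its 100-nt windows with other annotated genes, so its level is uncertain. The same holds for the c subunit gene Atp5g2 (100% of windows shared), its relative Atp5g1 (57.3%) and Cox7c (44.4%), and in all 19 members share at least 1 window. Exons of 13 members overlap a gene on the opposite strand, and the counting did not use strand.

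**Figure D1:**
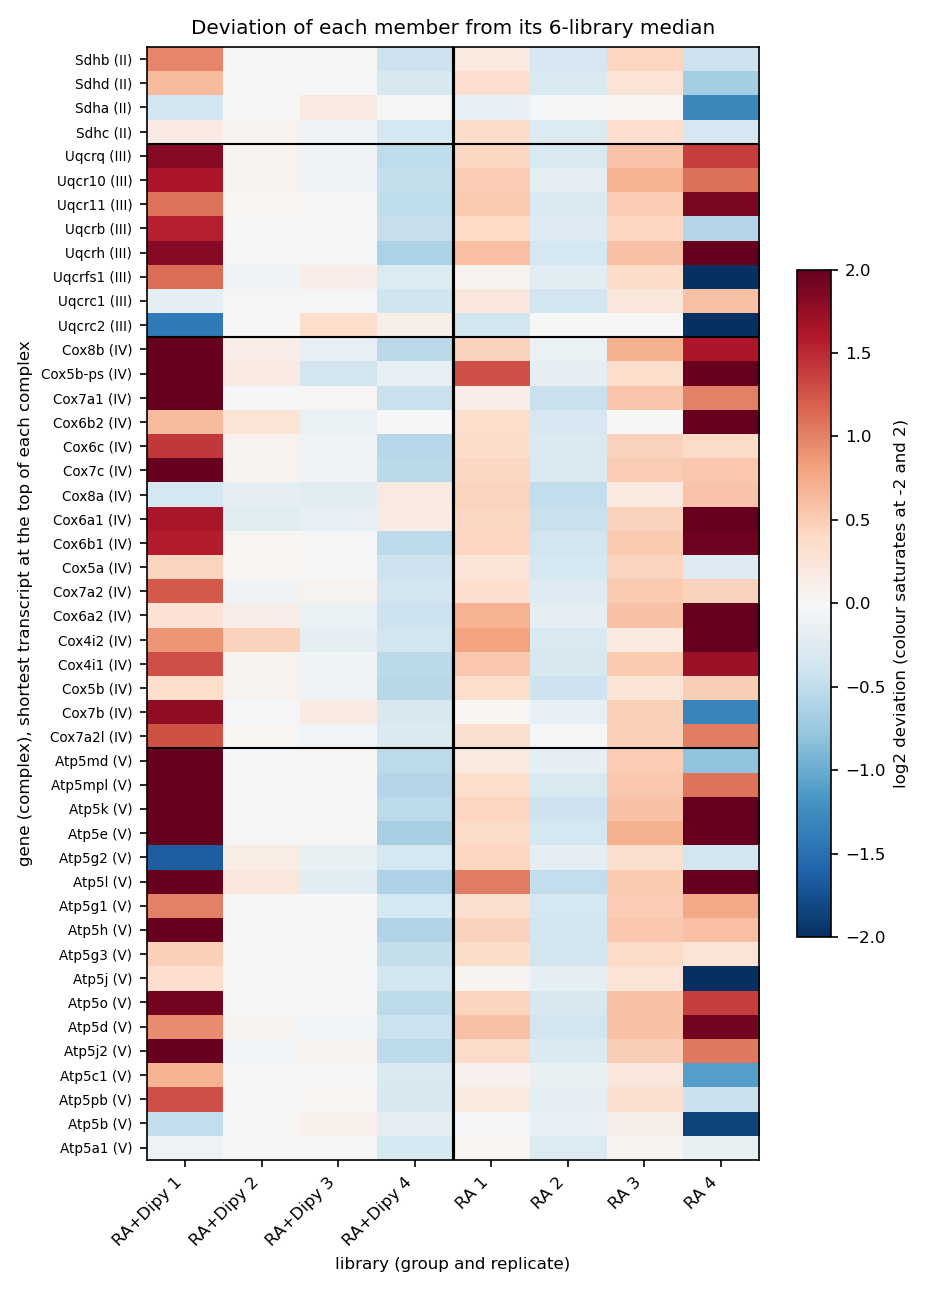
Log2 deviation of each tested member (rows, grouped by complex, shortest transcript first within a complex) from its own median in the 6 libraries other than RA+Dipy 1 and RA 4; columns are the 8 libraries, RA+Dipy left of RA, and the colour scale saturates at −2 and 2. RA+Dipy 1 and RA 4 hold the strongest colours, RA+Dipy 4 and RA 2 are mostly below 0, and RA 1 and RA 3 mostly above.

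With all 8 libraries, no member differed between RA+Dipy and RA at an adjusted p under 0.05, and the members were split evenly in direction. By edgeR's quasi-likelihood test 0 of 12755 genes (0%) passed the Benjamini-Hochberg threshold, with a smallest adjusted p of 0.882. The DESeq2 Wald test also called 0. Of the 46 tested members 23 were higher and 23 lower in RA+Dipy. Their median log2 fold change was −0.01 (0.05 with upper-quartile scaling), against 0.02 over all genes tested, of which 52.2% were higher and 47.8% lower. Only Cox6a2, which was lower, had an unadjusted edgeR p under 0.05. That is 2.17% of the members, against 3.83% of all genes tested (488 genes). Of all genes tested, 1.68% (214) passed as higher and 2.15% (274) as lower. With upper-quartile scaling no member was below 0.05, and the genes split into 289 higher and 173 lower. No member had groups that did not overlap, against 2.72% of all genes (1.46% higher and 1.26% lower). In bulk muscle, fewer cells of a type and less RNA per cell cannot be told apart. The SE of a member's log2 fold change ran from 0.26 to 1.01 with a median of 0.50, so most differences were within their error.

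Members of each complex lay on both sides of 0 with all 8 libraries. Complex II had a median log2 fold change of 0.19 (3 higher, 1 lower) and complex V of 0.19 (10 higher, 7 lower). Complex III stood at −0.03 (4 higher, 4 lower; 0.02 with upper-quartile scaling) and complex IV at −0.23 (6 higher, 11 lower). The 37 nuclear-encoded subunits of complex I, the NADH dehydrogenase, stood at −0.15 (14 higher, 23 lower). Within complexes the range was wide, from −0.61 to 0.57 in complex III, −1.08 to 0.76 in complex IV and −0.96 to 0.93 in complex V, but only −0.10 to 0.24 in complex II.

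**Figure D2:**
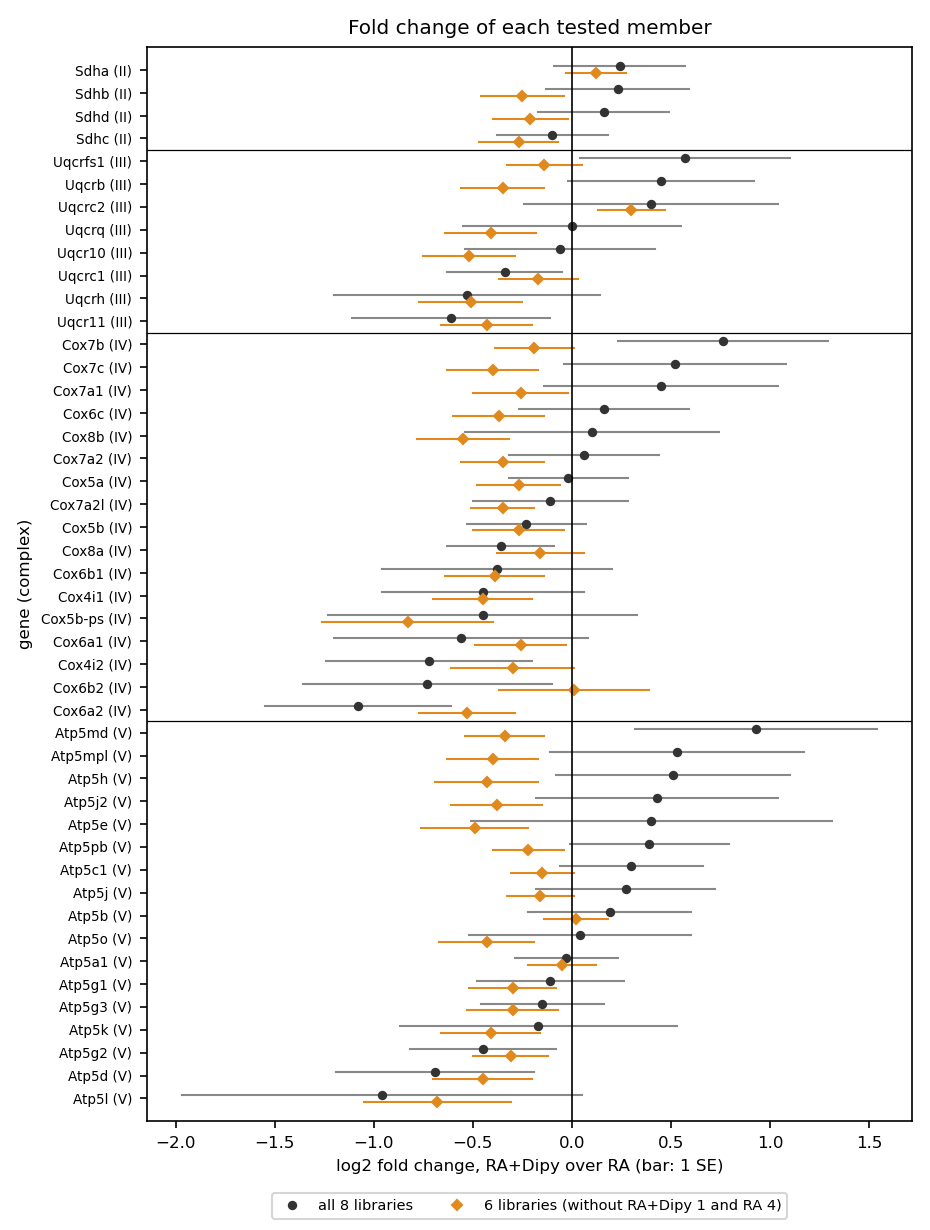
Log2 fold change of RA+Dipy over RA for the 46 tested members by complex (points, with bars of 1 SE), fitted with all 8 libraries (black) and with 6 libraries (orange). The black points lie on both sides of 0 with a median of −0.01, whereas 42 of the 46 orange points lie below 0.

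Succinate dehydrogenase had the fewest members (4) and the narrowest range of fold changes among the 4 complexes. Sdha, the flavoprotein subunit that oxidises succinate, stood at 658, 872, 969 and 844 CPM in RA+Dipy replicates 1 to 4, against 763, 836, 884 and 353 CPM in RA replicates 1 to 4. RA replicate 4 was the low library and the other 7 lay close together (log2 fold change 0.24, SE 0.33, edgeR adjusted p 0.889). Over the 6 libraries other than RA+Dipy 1 and RA 4, Sdha had the smallest SD of any member, 0.11 log2 units, against a median of 0.36.
Sdhb, the iron-sulfur subunit, had 980, 488, 506 and 373 CPM in RA+Dipy and 572, 392, 668 and 374 CPM in RA. Its groups overlapped, and RA+Dipy replicate 1 alone lay above every RA library (log2 fold change 0.23, SE 0.36). The membrane anchors overlapped between groups as well. Sdhc had 444, 413, 378 and 308 CPM in RA+Dipy and 510, 328, 499 and 314 CPM in RA. Sdhd had 488, 312, 318 and 253 CPM in RA+Dipy and 396, 254, 380 and 198 CPM in RA. Their log2 fold changes were −0.10 (SE 0.28) for Sdhc and 0.16 (SE 0.33) for Sdhd, smaller than their SE.

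In complex III, the Rieske iron-sulfur protein Uqcrfs1 and the small subunit Uqcrb had the smallest p on the higher side. Uqcrfs1 stood at 1130, 496, 569 and 432 CPM in RA+Dipy, against 545, 446, 673 and 107 CPM in RA. Uqcrb stood at 916, 313, 308 and 225 CPM in RA+Dipy, against 410, 261, 416 and 207 CPM in RA. For both genes the top value was RA+Dipy replicate 1 and the bottom value RA replicate 4, and the remaining 6 libraries were interleaved. The log2 fold changes were 0.57 (SE 0.53, edgeR adjusted p 0.882) for Uqcrfs1 and 0.45 (SE 0.47, adjusted p 0.883) for Uqcrb, and 0.17 and −0.20 without RA+Dipy replicate 1. On the lower side, the small subunit Uqcr11 had 438, 212, 201 and 144 CPM in RA+Dipy and 295, 167, 295 and 757 CPM in RA (log2 fold change −0.61, SE 0.50; 0.00 without RA replicate 4). The core protein Uqcrc1 had 928, 1070, 1030 and 797 CPM in RA+Dipy and 1240, 815, 1230 and 1580 CPM in RA (−0.34, SE 0.29; −0.18 without RA replicate 4). Here RA replicate 4 was the highest library for both. The other 4 members ran from −0.53 (Uqcrh, the hinge protein) to 0.40 (Uqcrc2, a core protein), with a smallest p of 0.443 in edgeR.

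In complex IV, the muscle form Cox6a2 had the lowest log2 fold change of all members. It stood at 971, 874, 726 and 591 CPM in RA+Dipy replicates 1 to 4, against 1290, 693, 1190 and 3490 CPM in RA replicates 1 to 4. RA replicate 4 was far above the rest, RA replicates 1 and 3 were above all RA+Dipy libraries, and RA replicate 2 lay among them. The means were 790 ± 167 CPM in RA+Dipy and 1670 ± 1250 CPM in RA (SD, n = 4 each). The log2 fold change was −1.08 (SE 0.47), with an unadjusted edgeR p of 0.0462 and an adjusted p of 0.882. Without RA+Dipy 1 and RA 4 it was −0.53 (SE 0.24, edgeR unadjusted p 0.0544), and without RA 4 alone −0.41 (edgeR unadjusted p 0.19). With upper-quartile scaling the edgeR unadjusted p was 0.0517. Cox6a2 lies on chromosome 7 at 128205435 to 128206387 (GRCm38) and shares 70 exon bases with Itgad on the opposite strand. Cox6a1 lies on chromosome 5 at 115345642 to 115348981.

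The ubiquitous partner Cox6a1 was far less abundant. Its levels were 95.7, 26.2, 27.5 and 34.5 CPM in RA+Dipy and 41.3, 22.6, 42.6 and 164 CPM in RA (log2 fold change −0.56, SE 0.64). The groups overlapped, and the highest value of each group was in the library that stood apart. Corrected for transcript length, Cox6a2 exceeded Cox6a1 by 8.52, 28.0, 22.1 and 14.3 times in RA+Dipy and by 26.3, 25.8, 23.5 and 17.9 times in RA.

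Cox7a1, the muscle form of subunit 7a, stood at 1150, 252, 259 and 189 CPM in RA+Dipy, against 281, 188, 376 and 513 CPM in RA. RA+Dipy replicate 1 was the highest library and the other 3 RA+Dipy values lay within or at the lower edge of the RA range (log2 fold change 0.45, SE 0.59). Cox7a2, its ubiquitous partner, had 399, 162, 178 and 130 CPM in RA+Dipy and 215, 143, 244 and 233 CPM in RA (0.06, SE 0.38). Per kilobase the muscle form was 2.44 to 4.83 times the ubiquitous form in RA+Dipy and 2.19 to 3.70 times in RA.

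Cox8b, the muscle form of subunit 8, stood at 1710, 385, 315 and 243 CPM in RA+Dipy, against 486, 322, 578 and 1080 CPM in RA. Again the highest library of each group was RA+Dipy replicate 1 and RA replicate 4, and the groups overlapped (log2 fold change 0.10, SE 0.64). Cox8a, the ubiquitous form, had 26.1, 29.5, 28.5 and 37.6 CPM in RA+Dipy and 45.4, 23.7, 38.0 and 49.4 CPM in RA (−0.36, SE 0.27). Unlike Cox8b, Cox8a did not peak in RA+Dipy replicate 1. Per kilobase Cox8b exceeded Cox8a by 9.89 to 99.7 times in RA+Dipy and by 16.4 to 33.4 times in RA.

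**Figure D3:**
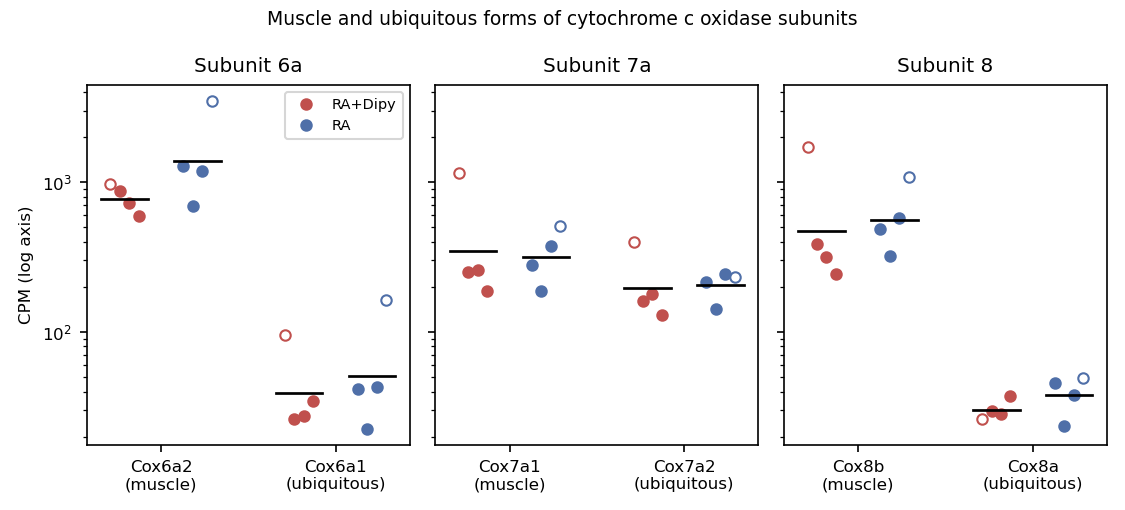
Level (CPM, log axis) of the muscle and ubiquitous forms of subunits 6a, 7a and 8 in each library, RA+Dipy (red) left of RA (blue) for each gene; open circles are RA+Dipy 1 and RA 4, and black bars are geometric means over the 4 libraries of a group. The muscle form lies above its ubiquitous partner in all 3 pairs, and the groups overlap for all 6 genes.

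The balance between muscle and ubiquitous forms was compared as the log2 ratio of their counts within a library, which library scaling does not touch. For Cox6a2 over Cox6a1 it was 3.34, 5.06, 4.72 and 4.09 in RA+Dipy and 4.97, 4.94, 4.80 and 4.41 in RA. RA+Dipy replicates 1 and 4 were below all RA libraries and replicate 2 was above them. The difference of RA+Dipy minus RA was −0.48 (two-sided exact permutation p = 0.314, 0.771 adjusted over 3 ratios), and it was −0.16 without RA+Dipy replicate 1 and −0.28 without both libraries that stood apart.
For Cox7a1 over Cox7a2 the log2 ratio was 1.53, 0.64, 0.55 and 0.54 in RA+Dipy and 0.39, 0.40, 0.63 and 1.14 in RA. The difference was 0.17 (exact permutation p = 0.514, adjusted 0.771), and without RA+Dipy replicate 1 it was −0.06. For Cox8b over Cox8a the log2 ratio was 6.03, 3.70, 3.46 and 2.69 in RA+Dipy and 3.42, 3.76, 3.93 and 4.45 in RA. The difference was 0.08 (exact permutation p = 0.943, adjusted 0.943), and it was −0.60 without RA+Dipy replicate 1 and −0.07 without RA replicate 1. The smallest p that the 70 assignments allow is 0.0286. No pair showed a shift between forms beyond the spread between libraries.

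Among the other members of complex IV, subunit 7b (Cox7b) and subunit 7c (Cox7c) had the smallest p on the higher side. Cox7b stood at 1010, 285, 330 and 235 CPM in RA+Dipy, against 303, 264, 411 and 118 CPM in RA (log2 fold change 0.76, SE 0.53, edgeR adjusted p 0.882). Cox7c stood at 750, 174, 159 and 114 CPM in RA+Dipy, against 223, 136, 237 and 241 CPM in RA (0.52, SE 0.56). RA+Dipy replicate 1 was the highest library for both, and without it Cox7b stood at 0.05 and Cox7c at −0.49.
Cox4i1, the form of subunit 4 found in most tissues, had 2300, 990, 905 and 651 CPM in RA+Dipy and 1370, 759, 1360 and 3130 CPM in RA (−0.45, SE 0.51; 0.08 without RA replicate 4). Cox4i2, its lung form, had 6.47, 4.84, 3.04 and 2.68 CPM in RA+Dipy and 6.13, 2.81, 3.98 and 15.5 CPM in RA (−0.72, SE 0.52; −0.02 without RA replicate 4). Cox7a2l had 191, 81.0, 75.6 and 63.9 CPM in RA+Dipy and 97.9, 76.1, 109 and 160 CPM in RA (−0.11, SE 0.39). In all 3 genes the groups overlapped. The remaining 6 tested members ran from −0.73 (Cox6b2) to 0.16 (Cox6c), with a smallest edgeR p of 0.275.

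In ATP synthase, the membrane subunit Atp5md (DAPIT, Usmg5 in GENCODE) and the peripheral stalk subunit Atp5pb had the smallest p on the higher side. Atp5md stood at 539, 107, 110 and 75.5 CPM in RA+Dipy, against 124, 94.6, 154 and 62.2 CPM in RA. RA+Dipy replicate 1 was above every other library, and without it the log2 fold change of 0.93 (SE 0.61, edgeR adjusted p 0.882) became −0.16. Atp5pb stood at 1640, 652, 689 and 534 CPM in RA+Dipy, against 771, 590, 838 and 490 CPM in RA (0.39, SE 0.40; −0.11 without RA+Dipy replicate 1).
On the lower side stood the central stalk subunit Atp5d, with 978, 526, 487 and 376 CPM in RA+Dipy and 761, 387, 757 and 1920 CPM in RA (−0.69, SE 0.50; −0.08 without RA replicate 4, its highest library). The c subunit gene Atp5g2 had 20.5, 71.7, 58.2 and 50.6 CPM in RA+Dipy and 87.1, 56.5, 80.7 and 50.2 CPM in RA (−0.45, SE 0.37). The other 13 members ran from −0.96 (Atp5l) to 0.53 (Atp5mpl, the small proteolipid subunit), with a smallest edgeR p of 0.365.

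Atp5g1, Atp5g2 and Atp5g3 encode the same mature c subunit of the membrane ring with different import signals. Atp5g3 gave 55.0%, 60.9%, 60.6% and 58.5% of the counts of the 3 genes in RA+Dipy and 61.3%, 60.0%, 59.0% and 54.5% in RA. Atp5g1 gave 33.1% to 43.9% in RA+Dipy and 33.0% to 42.4% in RA, and Atp5g2 1.13% to 5.99% in RA+Dipy and 3.16% to 6.13% in RA. The order of the 3 genes was the same in every library. The outermost shares belonged to RA+Dipy replicate 1 and RA replicate 4 for Atp5g1 (highest) and Atp5g2 (lowest).

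RA+Dipy replicate 1 and RA replicate 4 departed from the other 6 libraries differently for long and short members. RA+Dipy replicate 1 was more than 2-fold above the 6-library median for 26 members and more than 2-fold below it for 2, and RA replicate 4 for 20 and 7. Members of up to 600 nt had a median log2 deviation of 1.82 in RA+Dipy replicate 1 and 1.24 in RA replicate 4 (20 members). Members over 1000 nt stood at 0.63 in RA+Dipy replicate 1 and −0.67 in RA replicate 4 (13 members). A trend with length was not particular to these libraries. The Spearman correlation of deviation with length over the 46 members was −0.62 in RA+Dipy replicate 1 and −0.54 in RA replicate 4. Elsewhere it was −0.20, 0.40 and 0.47 in RA+Dipy replicates 2 to 4 and −0.51, 0.24 and −0.56 in RA replicates 1 to 3. The short epsilon subunit gene Atp5e (421 nt) deviated by 3.25 in RA+Dipy replicate 1 and 2.45 in RA replicate 4, whereas Uqcrc2 (1896 nt) deviated by −1.41 and −3.59. Atp5e, picked as an extreme after its values were seen, had 4240, 438, 453 and 282 CPM in RA+Dipy and 578, 351, 731 and 2430 CPM in RA. Atp5b (1916 nt), which joins it in the catalytic part of the enzyme, ran the other way, with 2110, 3020, 3180 and 2610 CPM in RA+Dipy and 2900, 2640, 3200 and 820 CPM in RA. In the 6 other libraries Atp5b kept within 2610 to 3200 CPM. With offsets for GC content and length in edgeR, an alternative chosen after seeing the data, 20 of 46 members were lower with a median of 0.06, and Cox6a1, Cox8a and Atp5g2 turned to 0.03, 0.22 and 0.05.

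**Figure D4:**
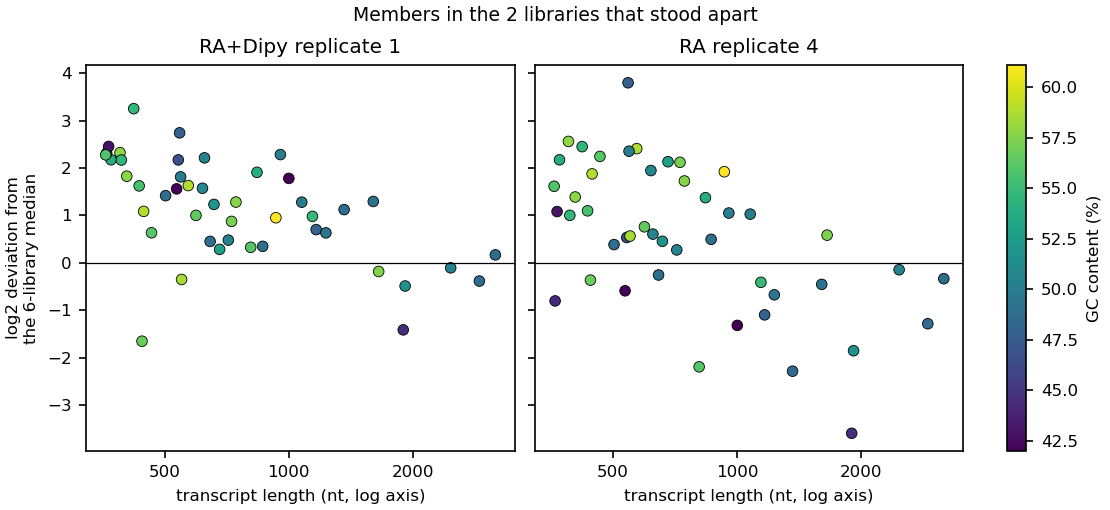
Log2 deviation of the 46 tested members from their 6-library median (vertical axis) against transcript length (nt, log axis), coloured by GC content, in RA+Dipy replicate 1 (left) and RA replicate 4 (right). Short transcripts lie above 0 in most cases in both libraries, and long transcripts lie lower, down to −3.59 for Uqcrc2 in RA replicate 4.

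Without these 2 libraries, 42 of the 46 members were lower in RA+Dipy, none of them past the adjusted threshold. The median log2 fold change was −0.32, against 0.01 over all genes tested, of which 51.3% were higher and 48.7% lower. The members' median was −0.40 up to 600 nt, −0.17 over 1000 nt and −0.38 in between. Deviations also went with length over all genes that had a length value. Their Spearman correlation was −0.07, 0.14 and 0.40 in RA+Dipy replicates 2 to 4 and −0.36, 0.34 and −0.48 in RA replicates 1 to 3. The part of transcript length in the members' lower values without these 2 libraries was not tested. By complex the medians were −0.23 in complex II (3 of 4 lower), −0.38 in complex III (7 of 8), −0.35 in complex IV (16 of 17) and −0.34 in complex V (16 of 17). Complex I gave 36 of 37 lower with a median of −0.38. In total 21 members changed sign from the fit with all 8 libraries. The median SE was 0.23, against 0.50 with 8 libraries.
By edgeR 0 members passed the adjusted threshold, as did 0% of all 12796 genes, and the smallest adjusted p of a member was 0.424. Cox8b alone had an unadjusted p under 0.05 (0.0415; log2 fold change −0.55, SE 0.23), which is 2.17% of the members against 11.4% of all genes. No member had all RA+Dipy values below all RA values, against 6.21% of genes. Uqcrc2, a core protein of complex III, alone had them above, against 7.92% of genes. It is singled out here after its values were seen, and had 116, 311, 395 and 334 CPM in RA+Dipy and 240, 306, 306 and 25.5 CPM in RA. The 2 libraries left out were its lowest of each group, and the log2 fold change without them was 0.30 (SE 0.17).
A single library was enough to turn the balance: 13 members were lower without RA replicate 4 alone (median 0.16), and 39 without RA+Dipy replicate 1 alone (median −0.48). Quality weights in limma-voom were 0.174 for RA+Dipy replicate 1 and 0.110 for RA replicate 4, against 0.734 to 4.80 in the other libraries. The weighted fit thus rested mostly on the same libraries as the fit without both, and is not a separate outcome. The weighted fit placed 43 members lower (median −0.40). Of the 46 tested members, 15 were lower with an unadjusted limma-voom p under 0.05. That is a larger share than among all genes, of which 14.5% (1852 of 12755) were lower at that threshold. It was not particular to complexes II to V. In the same fit 36 of the 37 complex I subunits were lower (median −0.47), 23 of them at an unadjusted limma-voom p under 0.05. No member passed the adjusted threshold of the weighted fit (smallest 0.0749), which 1.04% of all genes did (133 genes).

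Among these 6 libraries, the members were low in 1 library of each group. The median member deviated by 0.02, −0.02 and −0.42 log2 units in RA+Dipy replicates 2, 3 and 4, and by 0.37, −0.30 and 0.47 in RA replicates 1, 2 and 3. RA replicate 2 had 0 of 46 members above their median and RA replicate 3 had 44. In this comparison 38 members had their lowest value in RA+Dipy replicate 4 and 5 in RA replicate 2, while 29 had their highest in RA replicate 3 and 15 in RA replicate 1. The spread differed by subunit: the SD over the 6 libraries was 0.11 for Sdha, 0.13 for Atp5b and 0.18 for Atp5a1, the alpha subunit, but 0.49 for Atp5e and 0.49 for Uqcrh.

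**Figure D5:**
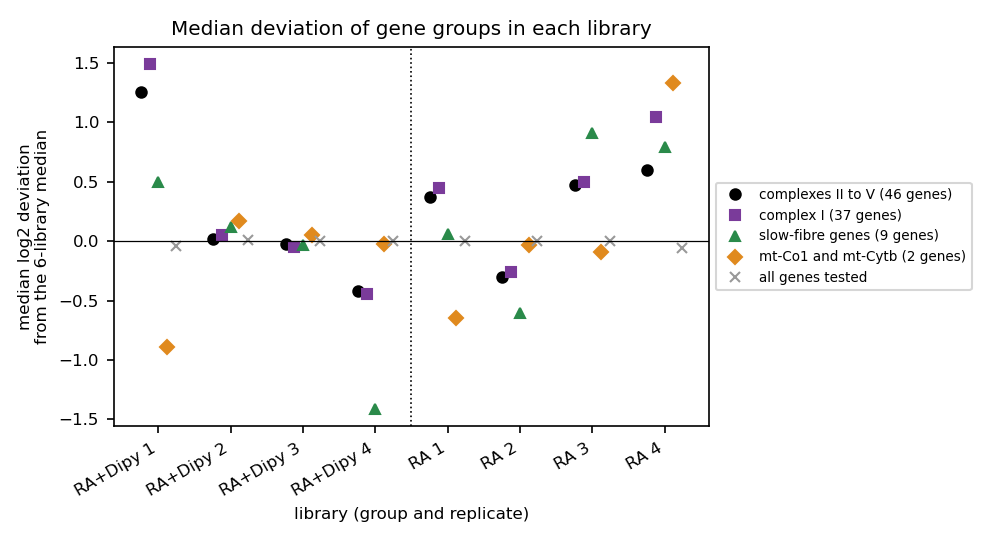
Median log2 deviation from the 6-library median (vertical axis) in each library, RA+Dipy left of RA, for the members, complex I, slow-fibre genes, the mitochondrially encoded mt-Co1 and mt-Cytb, and all genes tested. Members and complex I deviate in the same direction in every library. They differ most in RA 4 (0.60 for members, 1.05 for complex I) and RA+Dipy 1 (1.26 and 1.49). Slow-fibre genes are also low in RA+Dipy 4 and RA 2 and high in RA 3. The low point of the mitochondrially encoded pair in RA+Dipy 1 is the midpoint of −1.69 (mt-Co1) and −0.10 (mt-Cytb).

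Markers of slow fibres were also low in RA+Dipy replicate 4 and RA replicate 2, whereas those of fast oxidative fibres followed another pattern. The 9 slow-fibre genes (all detected) deviated by 0.12, −0.03 and −1.41 in RA+Dipy replicates 2 to 4 and by 0.06, −0.60 and 0.91 in RA replicates 1 to 3. Their summed level over all libraries was 1180 to 2550 CPM in RA+Dipy and 1550 to 3050 CPM in RA. The pair of fast oxidative myosins, Myh2 and Myh1, deviated by 0.37, 0.42 and 0.04 in RA+Dipy replicates 2 to 4 and by −0.17, −0.29 and −0.18 in RA replicates 1 to 3. The median of their log2 fold changes was 0.48 with all 8 libraries and 0.51 without the 2 that stood apart, on the higher side for both genes, neither of them past the adjusted threshold. Their summed level was 794 to 5260 CPM in RA+Dipy and 666 to 3520 CPM in RA, lowest in the library of each group that stood apart. In RA+Dipy replicate 4, 9 of the 10 white fat markers were above their 6-library median, with a median deviation of 2.30. Adipoq, the fat-cell hormone adiponectin, had 101 CPM there, against 10.4 to 24.0 CPM in the other 7 libraries. The 10 white fat markers summed to 2430 to 5090 CPM in RA+Dipy and 2190 to 3760 CPM in RA. Their sum was 3330 CPM in RA+Dipy replicate 4, below RA+Dipy replicate 1 (5090 CPM) and RA replicate 4 (3760 CPM). Ucp1, which defines brown fat, had 6.92 CPM in RA+Dipy replicate 4, against 0 in the other 7 libraries. The 8 brown fat markers summed to 10.2 to 36.6 CPM in RA+Dipy and 11.3 to 43.4 CPM in RA, with the highest sum in RA replicate 4. The 6 tested brown fat markers had a median deviation of 0.36 in RA+Dipy replicate 4 and 0.75 in RA replicate 4. Markers of macrophages and fibroblasts were on the higher side in RA+Dipy. The 12 macrophage markers (all detected) deviated by −0.08, 0.78 and 0.73 in RA+Dipy replicates 2 to 4 and by −0.65, −0.03 and −0.20 in RA replicates 1 to 3, and summed to 194 to 391 CPM in RA+Dipy and 138 to 331 CPM in RA. The 10 fibroblast markers (all detected) deviated by −0.03, 0.68 and 0.12 in RA+Dipy and by −0.35, −0.14 and 0.06 in RA, and summed to 2020 to 3850 CPM in RA+Dipy and 1560 to 2980 CPM in RA. In edgeR 10 of 12 and 8 of 10 were higher with all 8 libraries, and 12 of 12 and 9 of 10 without the 2 that stood apart, with 0 past the adjusted threshold in either fit. Limma-voom with library weights called 3 of each list higher at an adjusted p under 0.05. The part of fibre type, fat, macrophage or fibroblast content in the members' values was not tested.

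Of the mitochondrially encoded partners, mt-Co1 but not mt-Cytb was low in RA+Dipy replicate 1. Of the 6 listed genes of complexes III to V, mt-Co1 of complex IV and mt-Cytb of complex III had counts to test. mt-Co2, mt-Co3 and mt-Atp6 had at most 0.0845 CPM, with mt-Atp8 at 0. Absence of expression cannot be read from these low counts, since loss of reads in mapping or counting was not tested. mt-Co1 stood at 5770, 20000, 19300 and 18800 CPM in RA+Dipy, against 10200, 18400, 15600 and 46700 CPM in RA. mt-Cytb stood at 13800, 17400, 15200 and 14400 CPM in RA+Dipy, against 11000, 14300, 15500 and 37000 CPM in RA. RA replicate 4 was the highest library for both. In RA+Dipy replicate 1, where the nuclear members had a median deviation of 1.26, mt-Co1 deviated by −1.69 and mt-Cytb by −0.10. Their log2 fold changes were −0.51 (SE 0.54) for mt-Co1 and −0.36 (SE 0.41) for mt-Cytb, and 0.40 and 0.21 without the 2 libraries.

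Factors that build the complexes showed no called difference either. At an adjusted p under 0.05 in edgeR 0 of 4 assembly factors of complex II and 0 of 7 other genes of complex III passed. For complex IV it was 0 of 22 tested factors, and for the complex V list 0 of 6 genes. None of these genes had an unadjusted edgeR p under 0.05. With library weights in limma-voom 0 passed the adjusted threshold as well. At an unadjusted p under 0.05 in that fit 1 of 4, 2 of 7, 9 of 22 and 0 of 6 were lower, against 14.5% of all genes. In the complex IV list 1 was higher at that threshold. Sdhaf1, needed to insert iron-sulfur clusters into Sdhb, averaged 10.5 ± 6.30 CPM in RA+Dipy and 20.6 ± 18.2 CPM in RA (SD, n = 4 each; log2 fold change −0.98, and −0.13 without RA replicate 4). Sdhaf4, which helps mature Sdha, had a log2 fold change of 0.60. The complex III assembly factors Uqcc3 and Uqcc2 had log2 fold changes of −0.75 and −0.57, and of −0.03 and −0.02 without RA replicate 4. Cyc1, the cytochrome c1 subunit of complex III, averaged 437 ± 136 CPM in RA+Dipy and 463 ± 203 CPM in RA (−0.08).
For complex IV the smallest p were those of Coa3, an assembly factor, at 71.8 ± 24.9 CPM in RA+Dipy and 131 ± 101 CPM in RA (−0.87; −0.16 without RA replicate 4), and Higd2a (−0.42). In the complex V list they were those of Dmac2 (−0.39) and Tmem70, which helps assemble the ATP synthase (0.27). Dmac2 is an assembly factor of complex I, although it was listed here.

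Carriers around the complexes were likewise not called. The electron carrier cytochrome c, Cycs, averaged 137 ± 79.8 CPM in RA+Dipy and 100 ± 22.5 CPM in RA (log2 fold change 0.45), and Pdss1, which makes the side chain of ubiquinone, had 0.52. Mitochondrial creatine kinase of muscle, Ckmt2, averaged 1730 ± 641 CPM in RA+Dipy and 1230 ± 487 CPM in RA (0.50), and the ADP/ATP carrier Slc25a5 had 0.47. In the list of electron carriers 10 of 14 tested genes were higher and 4 lower. In the list of ADP and ATP exchange 5 of 7 were higher, and 0 of either list had an unadjusted edgeR p under 0.05. Without the 2 libraries that stood apart the electron carriers gave 7 higher and 7 lower (median −0.02), and with library weights in limma-voom 5 higher and 9 lower (median −0.03). ADP and ATP exchange gave 2 higher and 5 lower in both fits (medians −0.19 and −0.21). Of 8 genes that shape the cristae, 7 were higher with a median of 0.33 (−0.02 without the 2 libraries), among them Opa1 (0.35) and Apool (0.56).

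Among 16 transcription regulators of respiratory genes, 8 were higher and 8 lower, with a median of 0.05. Ppard, a nuclear receptor that promotes oxidative metabolism, stood at 18.1, 33.9, 31.9 and 31.6 CPM in RA+Dipy, against 40.9, 36.9, 37.3 and 84.8 CPM in RA. All RA+Dipy values lay below all RA values, which held for 1.26% of all genes, and the log2 fold change was −0.79 (SE 0.34, edgeR unadjusted p 0.0432, adjusted 0.882). Its edgeR unadjusted p was 0.06 with upper-quartile scaling, and without RA replicate 4 the log2 fold change was −0.40 (unadjusted p 0.107). Nrf1 stood at 9.50, 11.1, 11.6 and 9.32 CPM in RA+Dipy, against 13.5, 12.5, 12.1 and 15.9 CPM in RA, again without overlap (−0.38, SE 0.21, edgeR unadjusted p 0.106). Ppargc1a, the coactivator PGC-1alpha of mitochondrial biogenesis, had 30.2, 22.0, 22.3 and 21.7 CPM in RA+Dipy and 22.1, 25.5, 21.4 and 20.0 CPM in RA (0.11, SE 0.22).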

How the data were processed

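Gastrocnemius RNA from 8 mice (RA+Dipy n = 4, RA n = 4) was analysed from count tables. The authors deposited raw read counts per protein-coding gene for each library. Reads (100 nt, single-end) went through fastp 0.20.0, STAR 2.7.3a on GRCm38.p6 and HTSeq in non-stranded mode, per the submitters' processing notes and their design text. The release of the gene models used for counting is not given in the sources, and the labels and the design text name different library kits. Tables held 21859 lines; counts of 24 repeated symbols were summed.

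Genes kept by filterByExpr (minimum count 10; 12755 genes) were scaled by TMM and tested with edgeR 4.0.16 (R 4.3.3, quasi-likelihood, robust, two-sided), adjusted by Benjamini-Hochberg over all genes. The procedure was tested on simulated data. Isoform ratios used a prior count of 0.5 and an exact permutation test. Alternatives used DESeq2 1.42.0 and limma 3.58.1, other scalings, no filter, a replicate block and left-out libraries. Members, lists and tests were chosen with earlier results of these data known. Named genes were the isoform pairs, complex II, Cox4i1, Cox4i2, Cox7a2l and the 2 members of smallest p per direction in complexes III to V, plus up to 2 genes of smallest p per pathway list, Cyc1 and Ppargc1a. Deviations are log2(CPM + 0.1) minus the median over the 6 libraries other than RA+Dipy 1 and RA 4.

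Positions, lengths and GC content come from GENCODE vM21 (GRCm38), using for each gene the shortest transcript of the best APPRIS rank and support level. Lengths are thus annotated and not measured. Promoters come from RefSeq (GRCm38.p6). The limit of 3 counts covers counting error only, since reads carry no molecular identifiers. Within groups, chi-square values between libraries were at least 29.7 per degree of freedom, so none was treated as a duplicate.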

Additional observations from a re-analysis of the deposited data

Results flagged for a closer look

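Over 52 sets of 4 libraries (23 named members and 3 isoform ratios in each group), 3 had a library far from the others by Dixon's criterion on log2 levels or ratios, where chance gives about 1 in 20. Sdha was at 353 CPM in RA replicate 4, the lowest of its group, against 763 to 884 CPM in the other RA libraries. Cox7c was at 136 CPM in RA replicate 2, against 223 to 241 CPM in the other RA libraries. The log2 ratio of Cox7a1 over Cox7a2 was 1.53 in RA+Dipy replicate 1, against 0.54 to 0.64 in the other RA+Dipy libraries. The criterion depends on the scale. On CPM without logs, of the 46 sets of named members neither Sdha nor Cox7c in RA passed, and 10 other sets did: Cox7a1, Cox8b, Cox6a1, Cox7a2l, Uqcrb, Cox7b, Cox7c, Atp5md and Atp5pb in RA+Dipy, each with RA+Dipy replicate 1 highest, and Cox6a1 in RA, with RA replicate 4 highest. The causes were not tested.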

How the results depend on the processing

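With DESeq2 size factors, upper-quartile factors or no filter, 24, 21 and 24 members were lower, and the medians of all members and of each complex moved by less than the SD between libraries. With upper-quartile factors the single member at an unadjusted p under 0.05, Cox6a2, was lost (p 0.0517 in edgeR). At an adjusted p under 0.05 the count of genes was 0 in each fit except limma-voom with library weights (133). At an unadjusted p under 0.05 it was 740 by DESeq2, 3638 by limma-voom with weights, 165 with the replicate block, 1461 without both libraries that stood apart, and 178 to 1187 leaving out single libraries. Members lower in RA+Dipy numbered 43 with weights, 42 without both libraries and 13 to 39 leaving out single libraries. The median of complex II was −0.27 with weights and −0.23 without both, and that of complex V ran from −0.47 to 0.29 leaving out single libraries. For Cox8b over Cox8a the difference was −0.42 without both and −0.60 to 0.51 leaving out single libraries; for Cox7a1 over Cox7a2 it was −0.06 to 0.34.

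Fold changes that changed sign are given with weights and then without both libraries: Cox7a1 −0.34 and −0.26, Cox8b −0.68 and −0.55, Cox7a2 −0.39 and −0.35, Sdhb −0.29 and −0.25, Sdhd −0.24 and −0.21, Uqcrfs1 −0.11 and −0.14, Uqcrb −0.37 and −0.35, Cox7b −0.16 and −0.19, Cox7c −0.46 and −0.40, Atp5md −0.34 and −0.34, Atp5pb −0.22 and −0.22, Sdhaf4 −0.33 and −0.29, Tmem70 −0.13 and −0.14, Cycs −0.16 and −0.15, mt-Co1 0.40 and 0.40, mt-Cytb 0.14 and 0.21. Ppargc1a was −0.06 without both. With GC and length offsets Cox6a1 was 0.03, Cox8a 0.22, Atp5g2 0.05, Ppargc1a −0.18 and Cyc1 0.10. Leaving out single libraries gave −0.54 to 0.75 for Cox7a1, −0.97 to 0.55 for Cox8b, −0.41 to 0.24 for Cox7a2, −1.20 to 0.40 for Cox6a1, −0.96 to 0.08 for Cox4i1, −0.59 to 0.15 for Cox7a2l, −1.03 to 0.00 for Uqcr11, −0.20 to 0.66 for Uqcrb, −0.49 to 0.79 for Cox7c, −0.16 to 1.21 for Atp5md, −0.11 to 0.57 for Atp5pb, −0.19 to 0.02 for Sdhc, −0.14 to 0.39 for Sdhb, −0.06 to 0.31 for Sdhd, −0.15 to 0.81 for Sdhaf4, 0.00 to 0.41 for Tmem70, −0.05 to 0.61 for Cycs, −0.75 to 0.12 for mt-Co1, −0.55 to 0.17 for mt-Cytb, −0.02 to 0.18 for Ppargc1a and −0.33 to 0.11 for Cyc1. The causes were not tested.

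Replicate numbers are shared between the groups, but same-numbered libraries deviated with correlations of −0.20, 0.11, 0.15 and −0.27, so the numbers were not taken as pairs. With the replicate block 0 genes passed the adjusted threshold, 29 members were lower, and Cox8b and Cox7a2 stood at −0.25 and −0.06. The unadjusted edgeR p with the block was 0.154 for Cox6a2 and 0.064 for Ppard. The median SE of a member's log2 fold change was 0.50 with 4 libraries a group. The 16.4 M counts of the shallowest library, RA+Dipy replicate 1, give Cox6b2 12 counts and Cox5b-ps 65 counts there.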
